A study of Drosophila melanogaster with 382 samples.

Results

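The 4 wild-type embryos described here were taken during nuclear cycle 14, the long interphase in which the Drosophila blastoderm turns into an epithelium, and carry the stage labels cycle 14B, 14C, 14D and 14E. They were chosen by these labels alone. Their 50 slices are part of 382 slices of 25 embryos in the series, and 39 of the 50 have values. Each embryo was frozen and cut along its anteroposterior axis, and the RNA of each slice was sequenced as a library of its own. The level of a gene is given as FPKM, the number of sequenced fragments scaled to transcript length and to library size, and the level in an embryo is the mean over its slices. All 4 embryos were of the Canton-S strain, without transgene or treatment other than fixation in methanol, and came from 2 hour egg lays at 25 °C aged to the stage. Libraries were made with the TruSeq kit after RNA of a yeast had been added as carrier. One embryo stands for each stage, so no stage difference has a replicate and no p-value is given.

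During this interphase, membrane grows inward between the nuclei of the syncytial embryo and encloses them in cells, a process called cellularization that needs a short list of zygotic genes and a large maternal supply of actin, myosin and septins. Maternal mRNAs are degraded at the same time, by the Smaug and Pumilio RNA-binding proteins among others, while transcription of the zygotic genome rises to full scale. Gap and pair-rule genes draw the segmental pattern, the dorsoventral genes set up mesoderm, neuroectoderm and amnioserosa, and the sex-determination switch is set by the number of X chromosomes. Gastrulation follows with the folding of the mesoderm, driven by the Fog and T48 signals.

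The embryos differed in what was recovered. Values exist for 7 of 13 slices of 14B, all 10 of 14C, 13 of 14 of 14D and 9 of 13 of 14E. 14B lacks all of its first 3 slices, where the anterior end lies, and 14E lacks slices 1, 4, 7 and 8. Estimated library sizes lay between 244281 and 3977136 fragments, with medians of 371786 in 14B, 1323219 in 14C, 980750 in 14D and 394776 in 14E. At 5 FPKM on a transcript of 1500 bases, the counting error of an embryo mean is 23.3% in 14B and 18.1% in 14E, against 11.6% in 14C and 11.1% in 14D. The carrier was Torulaspora delbruckii in all slices of 14B and in 7 of the 9 of 14E, and Saccharomyces cerevisiae in all of 14C and 14D, so carrier and stage cannot be told apart between these pairs of embryos. Slice 9 of 14E had the shallowest library and stood below the other slices of its embryo in the level of late genes, and leaving it out lost the falls of cad from 14D to 14E and of ac and Clamp from 14B to 14E, added a rise of tll from 14D to 14E, and moved no other list count below by more than 1.5 times. Of the listed markers of other sources of RNA, the 7 follicle cell and eggshell genes summed to a mean of 0.18 to 1.67 FPKM per slice and the 6 genes of later muscle and neurons to 0.40 to 3.05 FPKM. Cp36, Cp38, Vm26Aa and dec-1 of the eggshell were at 0 in every slice of 14B, 14D and 14E, and Mhc and wupA of muscle were at or below 0.80 FPKM in every slice, while elav of neurons reached a mean of 2.27 FPKM in 14E. The apical constriction signals of gastrulation were low in all 4 embryos, with means of 2.8, 1.65, 6.66 and 2.08 FPKM for fog and 1.12, 0.39, 0.377 and 0.974 FPKM for T48 in the order of the labels. Of the other gastrulation signalling genes listed below, mthl1 and Traf4 were at least 2-fold higher in 14E than in 14D, and cta was lower. Whether gastrulation had begun in an embryo was not tested, and the embryos are called by their labels.

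Of the 13587 named genes, 5018 reached a mean of 5 FPKM in at least 1 of the 4 embryos and were compared. Here a gene is said to have risen or fallen if its mean FPKM plus 1 changed at least 2-fold, which is a rule of size and no test. A gene that reached 5 FPKM in 1 embryo only was compared because it was high there. Its change to or from that embryo is therefore tied to the filter, as for opa, knrl, brat, dan and CG7191 in 14E. Between 14B and 14C few genes moved, with 62 rising (1.24%) and 139 falling (2.77%). From 14C to 14D 627 genes rose (12.5%) and 179 fell (3.57%), and from 14D to 14E 702 rose (14%) and 740 fell (14.7%). Over the whole span from 14B to 14E 636 genes rose (12.7%) and 411 fell (8.19%). Successive comparisons share an embryo, so a value of 14D enters both of its steps. The level is averaged over all cells of a slice, so fewer cells of a type and less RNA per cell cannot be told apart. FPKM are relative to the other genes of a library, and the median over all 5018 genes moved by -0.04 on the log2 scale from 14B to 14C, 0.24 from 14C to 14D, -0.17 from 14D to 14E and 0.00 from 14B to 14E. With each embryo scaled by its median ratio, the counts became 351 rising and 305 falling from 14C to 14D, which lowered the rising share of changed genes from 77.8% to 53.5%, and 838 rising and 543 falling from 14D to 14E, which raised that share from 48.7% to 60.7%. A change that is named below is given on the deposited scale.

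The error between embryos was read from 5 pairs of embryos of 1 genotype and stage in the other lines, which are bcd RNAi and G20 (a bcd overexpression line) at cycles 13 and 14D and hb RNAi at cycle 14D, made with another kit. In 4 of the pairs 1.32% to 4.15% of the 5018 genes were at least 2-fold apart, and in the hb RNAi pair 15.3% were. The 4.01% of genes that changed between 14B and 14C lay within the range of these pairs, and the 16.1% between 14C and 14D lay just above the hb RNAi pair. The 28.7% between 14D and 14E and the 20.9% between 14B and 14E exceeded all of the pairs. Asked gene by gene, the change was at least 2-fold and larger than in each of the 5 pairs for 155 genes from 14B to 14C (3.09%), 696 from 14C to 14D (13.9%), 1302 from 14D to 14E (25.9%) and 931 from 14B to 14E (18.6%).

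**Figure D1:**
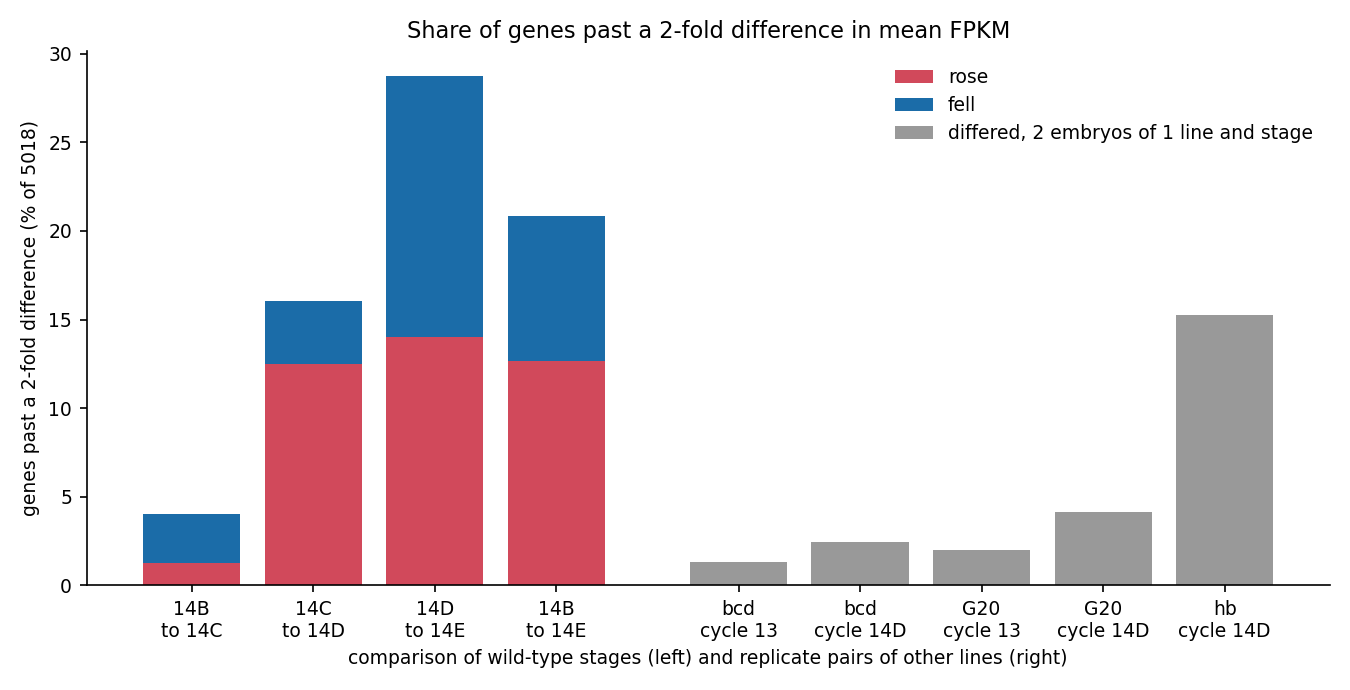
Bars give the percentage of 5018 genes whose mean FPKM plus 1 was at least 2-fold apart, split into rising and falling genes for the comparisons of wild-type stages and shown in grey for pairs of embryos of 1 other line and stage. The step from 14B to 14C (4.01%) is of the height of the smaller grey bars, and the step from 14D to 14E (28.7%) is the tallest bar drawn.

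Of the zygotic cellularization genes, nullo, bnk and CG34137 were lower at 14E than at 14B and the others were not 2-fold apart. All 6 listed genes passed the filter. Their median change was -0.88 on the log2 scale from 14B to 14E, against 0.00 over all genes, with 3 falling and none rising. Over all genes 8.19% fell and 12.7% rose. The clearest was nullo (FBgn0004143, chromosome X, 7049476 to 7050321 of the BDGP6 assembly), whose product stabilises the actin network at the furrow front. Its mean was 161, 181, 228 and 14.2 FPKM in 14B, 14C, 14D and 14E. Slices of 14D ran from 158 to 445 FPKM (median 199) and those of 14E from 3.66 to 63.5 FPKM (median 7.99), so no slice of 14E reached the lowest slice of 14D, and the fall by 3.91 on the log2 scale was larger than the 1.78 seen at most within a replicate pair. The bnk mRNA, whose product delays contraction of the furrow base, was at 1355, 1097, 1359 and 477 FPKM and fell by 1.51 from 14D to 14E. A replicate pair differed by up to 3.99 for bnk, however, so that fall lies inside the spread between embryos.

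The other 4 cellularization genes did not follow the order of the labels. slam, needed for growth of the furrow membrane, was at 460.0, 304, 655 and 675 FPKM and rose by 1.1 on the log2 scale from 14C to 14D. Sry-alpha, an actin regulator of the furrow, was at 1649, 1735, 604 and 1035 FPKM and thus lowest in 14D. CG34137, known as dunk and needed for early myosin organisation, was at 2950.0, 3487, 1678 and 1392 FPKM and fell by 1.06 from 14C to 14D. halo, which directs lipid droplet transport, was at 4013, 4291, 2310.3 and 3167 FPKM and did not move 2-fold in any comparison. With median-ratio scaling the rise of slam stayed under 2-fold and 3 of the 6 genes fell from 14C to 14D. By kallisto neither Sry-alpha nor CG34137 fell 2-fold. The replicate pairs differed by up to 2.81 for slam, 1.83 for Sry-alpha and 1.17 for CG34137, more than the changes given here.

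**Figure D2:**
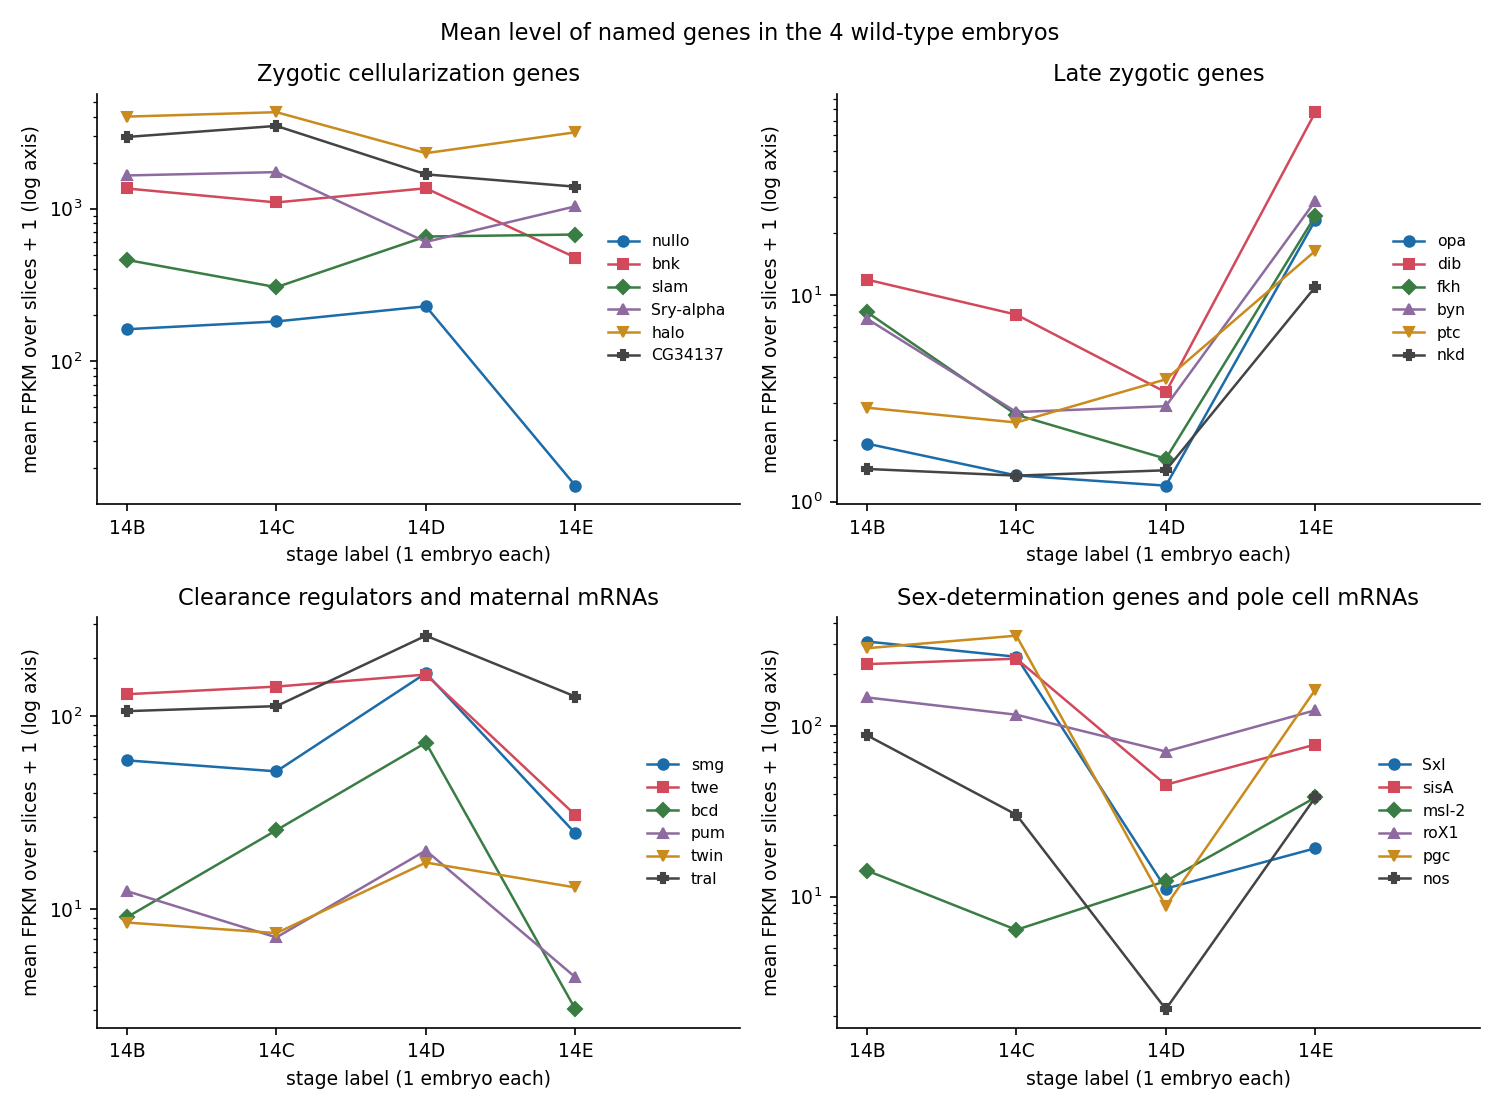
Points give the mean FPKM plus 1 over slices (log axis) in the embryo of each stage label for 6 genes of each of 4 groups, joined by lines for legibility. The nullo line drops only at 14E, the late zygotic genes such as opa and dib are highest at 14E, smg peaks at 14D, and Sxl, pgc and nos are lowest at 14D.

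Of the 14 maternal cytoskeletal genes of furrow growth 13 were compared, and 3 of them changed 2-fold from 14B to 14E, a share near the 20.9% of all genes. They were pbl, needed for cell division and mesoderm migration, at 28.2, 20.7, 11.6 and 77.5 FPKM, zip, the myosin II heavy chain, at 8.08, 5.96, 13.7 and 22.5 FPKM, and nuf, an endosomal factor that delivers membrane and actin to the furrow, at 38.4, 42.3, 82.7 and 14.5 FPKM. pbl rose by 2.64 from 14D to 14E and nuf fell by 2.43, each by more than in any replicate pair. From 14C to 14D zip rose by 1.08 and scra, the anillin gene, by 1.49, of which zip did not reach 2-fold with median-ratio scaling, and by kallisto 5 of the 13 rose. The myosin light chain and septin mRNAs stayed within 2-fold, with sqh at 351, 372, 312 and 286 FPKM and pnut at 149, 181, 214 and 219.9 FPKM. The median change of the list from 14C to 14D was 0.44, and that of all genes was 0.24.

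Regulators of maternal mRNA clearance were higher in 14D than in 14C. Of the 7 listed genes, all compared, 4 rose and 1 fell from 14C to 14D (median 1.21), and 2 rose and 3 fell from 14D to 14E (median -0.57). With median-ratio scaling 3 rose and 1 fell from 14C to 14D, the rise of tral being under 2-fold. From 14B to 14E 1 rose and 3 fell, or by kallisto brat alone rose. The shares of all genes that changed were 16.1% from 14C to 14D, 28.7% from 14D to 14E and 20.9% from 14B to 14E. smg (FBgn0016070, chromosome 3L, 8990317 to 8997989), whose product recruits the deadenylation machinery to maternal mRNAs, was at 58.2, 50.9, 166 and 23.8 FPKM in 14B, 14C, 14D and 14E, against 266 FPKM in wild type at cycle 13 and 139 FPKM at cycle 14A. Its slices ran from 20.1 to 99.9 FPKM (median 44.5) in 14C, from 97.1 to 235 FPKM (median 164) in 14D and from 11.4 to 48.5 FPKM (median 22.6) in 14E. The 14C and 14D ranges of smg overlap narrowly and those of 14D and 14E do not. Its rise by 1.69 from 14C to 14D and its fall by 2.76 from 14D to 14E both exceeded the 0.74 of the replicate pairs. pum, another repressor of maternal mRNAs, was at 11.4, 6.16, 19.2 and 3.45 FPKM, twin, the Ccr4 deadenylase, at 7.55, 6.54, 16.5 and 12 FPKM, and tral, a translational regulator that acts with me31B, at 105, 112, 261 and 126 FPKM. Each of the 3 was highest in 14D. brat, a partner of Pumilio, behaved otherwise at 3.39, 2.42, 3.86 and 11.1 FPKM, highest in 14E. me31B, a helicase of repressed mRNAs, declined in the order of the labels at 2007, 1779, 1631 and 1098 FPKM without reaching 2-fold in any comparison.

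The listed maternal mRNAs that are cleared in early embryos did not share 1 course. Of 14 listed, 8 were compared, and 6 were below 5 FPKM in all 4 embryos, among them osk at 1.54, 1.42, 2.4 and 2.08 FPKM. From 14B to 14E 1 rose and 4 fell (median -1.07), from 14C to 14D 3 rose and 2 fell (median 0.23), and from 14D to 14E 3 rose and 3 fell (median -0.68). Among all genes 20.9%, 16.1% and 28.7% changed in these comparisons. By kallisto only twe fell from 14B to 14E. twe, a maternal Cdc25 phosphatase removed at the maternal-to-zygotic transition, was at 129, 142, 164 and 29.8 FPKM. Slices of twe ran from 91.5 to 189 FPKM in 14D and from 11.1 to 45.1 FPKM in 14E without overlap, and the fall by 2.42 was larger than the 0.43 of the replicate pairs. Hsp83, a maternal chaperone mRNA protected in the pole cells, was at 38.4, 33.1, 39.9 and 92 FPKM and rose by 1.18 from 14D to 14E.

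The bcd mRNA, laid down at the anterior pole and encoding the anterior morphogen, was far higher in 14D than in its neighbours (FBgn0000166, chromosome 3R, 6755842 to 6759466). Its mean was 8.1, 24.7, 72 and 2.04 FPKM in 14B, 14C, 14D and 14E, and 94.2 FPKM at cycle 13 and 22.4 FPKM at cycle 14A. In 14D the anterior slice held 463 FPKM and the next 206 FPKM, whereas in 14C, whose anterior slices are also complete, the first held 147 FPKM and the next 64.2 FPKM. The highest slice of 14E, which lacks slice 1, was slice 2 at 7.19 FPKM. bcd thus rose by 1.51 from 14C to 14D and fell by 4.59 from 14D to 14E, both larger than the 1.24 within replicate pairs. Its rise by 1.5 from 14B to 14C turned to -0.83 when slices were matched to the positions present in 14B, so it rested on the anterior slices that 14B lacks.

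**Figure D3:**
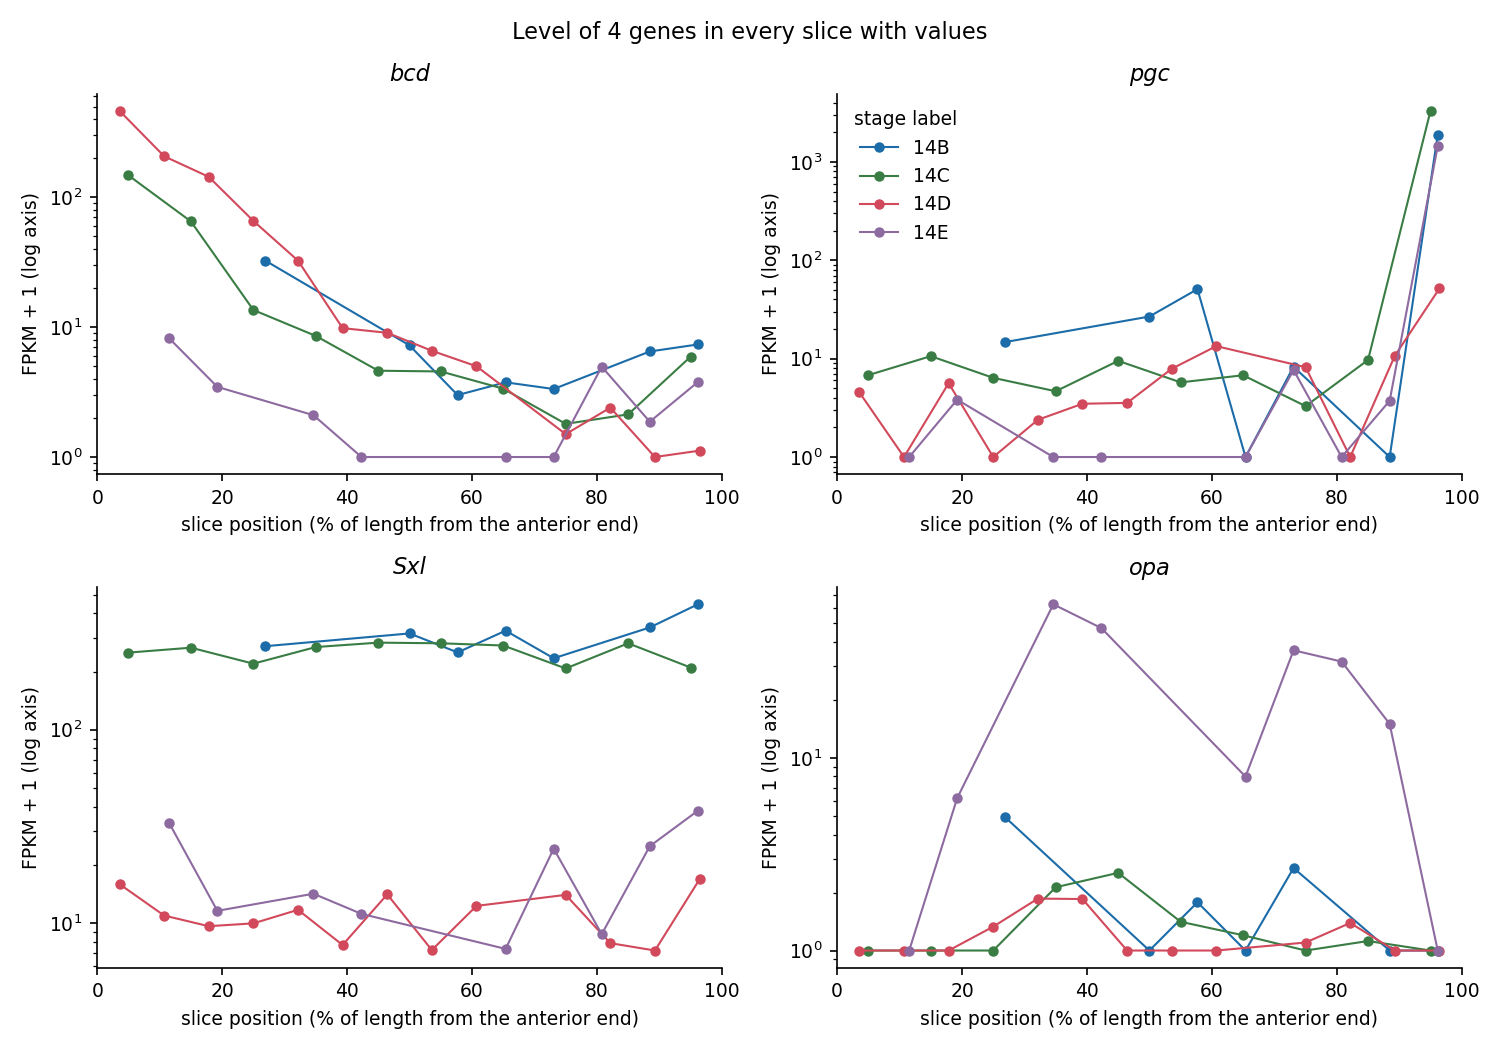
FPKM plus 1 (log axis) of bcd, pgc, Sxl and opa in each slice with values against the slice's position from the anterior end, 1 line per stage label. bcd in 14D lies above 14C over the anterior slices, the last slice of 14D lacks the pgc peak of the other embryos, Sxl separates 14B and 14C from 14D and 14E in every slice, and opa passes 3.91 FPKM only in 14E.

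Germ plasm mRNAs at the posterior tip were far lower in 14D than in the other embryos. pgc, which silences transcription in pole cells, was at 284, 336, 7.81 and 162 FPKM, and nos, a maternal translational repressor that pole cells retain, at 87.1, 29.2, 1.2 and 37.2 FPKM. In the last slice pgc reached 1889 FPKM in 14B, 3307 FPKM in 14C and 1445 FPKM in 14E, but 50.7 FPKM in 14D. For nos the last slice was at 598 FPKM in 14B, 288 FPKM in 14C, 332 FPKM in 14E and 7.73 FPKM in 14D. The falls from 14C to 14D were 5.26 for pgc and 3.78 for nos on the log2 scale, against replicate pair differences of up to 2.97 and 2.64. The other 3 pole cell markers of the list did not share this, with gcl at 36.9, 16.4, 38 and 18.8 FPKM and vas and osk below 4 FPKM on average in each embryo. Summed over the 5 markers, slices of 14D ran from 36.9 to 105 FPKM and those of 14B, 14C and 14E reached 2668, 3654 and 1877 FPKM. The cause was not tested.

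Of the 10 cell-cycle genes, all compared, 2 fell and none rose from 14B to 14E, a share near the 20.9% of all genes. twe fell, as given above, and CycB, a mitotic cyclin, fell by 1.19, which was under 2-fold by kallisto. Z600, a zygotic inhibitor of mitosis, was at 5232, 5554, 2229.5 and 4920.3 FPKM, lower 2-fold in 14D than in 14C and in 14E, yet its replicate pairs differed by up to 1.71. CycE, the cyclin of S phase entry, rose by 1.02 from 14D to 14E to 82 FPKM. stg, the zygotic Cdc25 that later triggers mitosis, remained at 3.96, 3.0, 5.59 and 3.61 FPKM. Outside the list, pim, the securin of anaphase, fell by 2.29 from 14D to 14E, from 289.6 to 58.3 FPKM. It was chosen after its values were seen.

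Of the 10 gap genes, all compared, 2 rose and 1 fell from 14B to 14E (median 0.15), where 20.9% of all genes changed, and from 14D to 14E 1 rose and 1 fell, or 3 and 1 with median-ratio scaling. Kr, the central gap gene, was at 174, 111, 54.8 and 59.4 FPKM and fell by 1.53 from 14B to 14E. 14B held 312 and 548 FPKM of Kr in its slices 7 and 8, which are missing from 14E. The change at the positions of the 14B slices was -1.29, but this takes the nearest slices of 14E that have values. It cannot restore the missing slices, and their part in the fall of Kr was not tested. hb, the anterior gap gene, was at 96.6, 85.6, 150.4 and 60.1 FPKM and fell by 1.31 from 14D to 14E. That fall of hb was under 2-fold at the positions of the 14B slices. knrl, the late partner of kni, went from 0.096, 0.091 and 0.446 FPKM in 14B, 14C and 14D to 8.83 FPKM in 14E, and there its slices ran from 0 to 52.2 FPKM (median 1.57), so that the rise lay in part of the embryo. oc, a head gap gene at 1.55, 6.87, 4.08 and 8.13 FPKM, and tll, a terminal gap gene at 152, 59, 66.5 and 126 FPKM, changed 2-fold between 14B and 14C in opposite directions. The rise of oc by 1.62 was inside the 1.96 of the replicate pairs, and at the positions of the 14B slices, which lack the anterior end, it was 0.44. The terminal gap gene hkb (59.1, 56, 75.3 and 94.1 FPKM) was not 2-fold apart in any comparison.

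Pair-rule genes as a group were lower in 14C than in 14B and higher in 14E than in 14D. All 9 were compared, with 3 falling and none rising from 14B to 14C (median -0.88, all genes -0.04) and 4 rising and none falling from 14D to 14E (median 0.94, all genes -0.17). Over all genes 2.77% fell from 14B to 14C and 14% rose from 14D to 14E. None of the 3 falls exceeded the gene's replicate pairs, and 3 of the 4 rises did. The rise of run was under 2-fold at the positions of the 14B slices, where slp1 fell, and by kallisto. 14C and 14D both had S. cerevisiae carrier, and the part of the carrier in this course was not tested. odd, a repressor of the pair-rule network, was at 49.3, 26.3, 8.93 and 51.5 FPKM, h, the hairy repressor, at 39.7, 16.2, 16.8 and 40.2 FPKM, and run, the Runt factor, at 9.0, 4.17, 5.12 and 13.2 FPKM. ftz was at 37.9, 14.5, 20.6 and 40.5 FPKM and eve at 17.3, 13.4, 25.4 and 16.9 FPKM, the latter within 2-fold throughout. slp2, a late pair-rule gene of the forkhead family, was at 3.36, 1.15, 2.7 and 5.64 FPKM.

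opa, the late pair-rule gene that opens chromatin for the shift to segmental patterning, had the largest change of the list (FBgn0003002, chromosome 3R, 4852813 to 4869979). Its mean was 0.91, 0.339, 0.195 and 22.2 FPKM in 14B, 14C, 14D and 14E, and no replicate pair differed by more than 0.21 on the log2 scale against a rise by 4.28 from 14D to 14E. In 14E its slices ran from 0 to 61.6 FPKM (median 14), with the highest at slice 5 and slices 2 and 13 at 0, of which slice 2 held 21.4 TPM, while no slice of the other 3 embryos passed 3.91 FPKM. In the kallisto table the 14B slices of opa hold 5.90 to 49.6 TPM, so the 14B to 14E rise rests on the FPKM table and the 14C and 14D levels are low in both. The other 2 timing genes of segmentation went down from 14B to 14E, cad, the posterior determinant, by 1.31 to 17.9 FPKM and D, the Dichaete Sox factor, by 1.2 to 177 FPKM, both under 2-fold by kallisto.

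Of the segment polarity genes, which act after gastrulation to hold segment borders, only ptc and nkd passed the filter, and both rose. Both passed it through 14E alone, so their rise to 14E was tied to the filter. From 14D to 14E 14% of all genes rose. ptc, the Hedgehog receptor, was at 1.85, 1.42, 2.92 and 15.4 FPKM and nkd, an inhibitor of Wingless signalling, at 0.44, 0.336, 0.418 and 9.99 FPKM. Their rises from 14D to 14E were 2.07 and 2.95, against replicate pair differences of up to 0.94 and 0.46. en was at 0.204, 0.073, 0.054 and 0.136 FPKM and wg was at 2.56, 0.541, 0.665 and 1.86 FPKM. None of the 8 Hox genes reached 5 FPKM, the highest mean being 3.88 FPKM for pb in 14B.

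Mesoderm genes were higher in 14E than in 14D. Of 12 listed genes 6 were compared, 4 rose and none fell from 14D to 14E (median 1.25), while 3 rose and none fell from 14B to 14E (median 0.97). The shares of all genes that rose were 14% from 14D to 14E and 12.7% from 14B to 14E. htl passed the filter through 14E alone, so its rise was tied to the filter. twi, which specifies the mesoderm, was at 77.7, 46.5, 64.6 and 126 FPKM and missed 2-fold in each comparison, with a change of 0.95 from 14D to 14E. sna, the repressor of neuroectodermal genes in the mesoderm, was at 90.6, 40.1, 42.4 and 89.5 FPKM, so that 14B and 14E were alike and 14C and 14D, both with S. cerevisiae carrier, lower. By kallisto the rise of sna from 14D to 14E was under 2-fold, and 3 of the 6 genes rose. htl, the FGF receptor of the spreading mesoderm, went from 0.783, 0.181 and 0.236 FPKM in 14B, 14C and 14D to 6.91 FPKM in 14E. Mdr49, a transporter, was at 13, 8.01, 29 and 80.7 FPKM, and wntD, a feedback inhibitor of Dorsal, at 5.66, 3.59, 14.9 and 14 FPKM. Both rose from 14C to 14D, but neither did once slices were matched to the positions present in 14B. Cyp310a1 was at 44.4, 22.8, 22.4 and 76.5 FPKM. Mef2, tin and zfh1, genes of later mesoderm, had means of at most 0.73 FPKM in all 4 embryos.

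Signals of gastrulation moved in both directions. 4 of the 6 listed genes were compared, where 28.7% of all genes changed from 14D to 14E. fog passed the filter of 5 FPKM through 14D alone, so its fall from 14D was tied to the filter, and mthl1 lay near that limit. From 14D to 14E mthl1, the receptor of Fog also known as mist, rose by 1.74 to 6.35 FPKM and Traf4, a junction adaptor of mesoderm folding, by 1.82 to 29.8 FPKM. fog fell by 1.31 and cta, the G protein subunit downstream of Fog, by 1.19 to 49.4 FPKM. Each of these 4 changes was larger than in the replicate pairs, and that of cta was under 2-fold with median-ratio scaling. Traf4 in 14E was close to its 30.3 FPKM in 14B, and no gene of the list rose from 14B to 14E.

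Of the dorsal ectoderm and amnioserosa genes, 9 of 14 were compared, with 1 rising and 4 falling from 14B to 14E (median -0.15), or 3 and 2 by kallisto. Among all genes 12.7% rose and 8.19% fell. The falling genes are early regulators of the dorsal side. zen, a homeodomain factor of the amnioserosa, was at 353, 282, 222 and 107 FPKM and its relative zen2 at 109.7, 84.7, 66.3 and 10.7 FPKM. The slices of zen ran from 245 to 723 FPKM in 14B and from 53.1 to 191 FPKM in 14E. tsg and scw, which act in BMP signalling and did not fall 2-fold from 14B to 14E by kallisto, were at 162, 179, 148 and 72.3 FPKM and 165, 113, 213 and 82 FPKM. Doc3, a T-box gene of the later amnioserosa, went from 3.41 to 8.27 FPKM between 14D and 14E, and Ance, a BMP target, from 7.14 to 21.5 FPKM. Doc3 lay below the filter of 5 FPKM in 14D and reached it in 14E, so its rise may be tied to the filter. dpp, the BMP ligand itself, was at 9.87, 6.23, 5.7 and 11.4 FPKM.

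The gut primordium genes rose together from 14D to 14E. All 3 were compared, and all 3 rose (median 3.34), where 14% of all genes rose. srp passed the filter through 14E alone, so its rise was tied to the filter. byn, the hindgut gene, was at 6.7, 1.72, 1.9 and 27.7 FPKM, fkh, the forkhead gene of the gut, at 7.3, 1.64, 0.614 and 23.3 FPKM, and srp, a GATA factor of endoderm and yolk nuclei, at 1.64, 0.562, 0.416 and 13.3 FPKM. In 14E the highest slice held 139 FPKM of byn, 162 FPKM of fkh and 77.8 FPKM of srp, against medians over slices of 0.94, 0 and 7.18 FPKM. The rises of byn and fkh thus lay in few slices, while the median of srp was 0.25 FPKM in 14D. From 14B to 14C fkh and byn fell by 1.65 and 1.5, and the replicate pair differences of fkh reached 2.13. Of the neuroectoderm and midline genes 3 of 10 were compared, and from 14D to 14E sog, the BMP antagonist, rose from 3.2 to 16 FPKM and SoxN, a neural Sox factor, from 2.46 to 9.11 FPKM, both beyond the replicate pairs. SoxN lay below the filter of 5 FPKM in 14D and reached it in 14E, so its rise may be tied to the filter.

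The Bearded family, small inhibitors of Notch signalling that are expressed around the mesoderm, rose from 14D to 14E. Of the 9 proneural and Bearded family genes 7 were compared, with 4 rising and none falling (median 1.30), where 14% of all genes rose. All 4 were beyond the replicate pairs, although 2 of the 4 rose with slices at the positions of 14B. Brd was at 55.7, 27.4, 30.5 and 158 FPKM, Tom at 181, 153, 119 and 308 FPKM, Ocho at 51.7, 32.9, 17.2 and 108 FPKM and BobA at 37.1, 25.5, 24.8 and 62.5 FPKM. E(spl)m4-BFM went the other way at 109, 83, 47.9 and 38.6 FPKM. ac, a proneural gene, fell by 2.09 from 14C to 14D.

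Of the Halloween genes, which make the steroid hormone ecdysone, 3 of 4 were compared, and all 3 rose from 14D to 14E (median 2.97), or only dib and phm by kallisto. The share of all genes that rose was 14%. dib (FBgn0000449, chromosome 3L, 4062292 to 4064551) was at 10.9, 7.06, 2.39 and 76.3 FPKM and rose by 4.51, against at most 0.39 in the replicate pairs. Slices of dib ran from 0 to 6.28 FPKM (median 2.26) in 14D and from 4.16 to 148 FPKM (median 71.6) in 14E. phm was at 9.14, 2.7, 1.87 and 21.5 FPKM, and no slice of 14E (lowest 7.5 FPKM) was as low as the highest slice of 14D (4.43 FPKM). spo was at 81.5, 82.5, 66.1 and 156 FPKM and rose by 1.23, less than the 1.36 of a replicate pair. sad, whose mean stayed below 5 FPKM in each embryo, was at 1.05, 2.05, 4.33 and 2.82 FPKM. Before 14E, dib fell by 1.25 from 14C to 14D, which was -0.62 by kallisto, and phm by 1.45 from 14B to 14C.

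Of the Toll receptor genes 3 of 5 were compared, where 14% of all genes rose from 14D to 14E. 18w and Tollo passed the filter through 14E alone, so their rises to 14E were tied to the filter. 18w went from 0.457 to 11.4 FPKM and Tollo from 0.525 to 6.89 FPKM between 14D and 14E, both beyond the replicate pairs, while Tl, the maternal receptor of dorsoventral patterning, was at 69.2, 112, 129 and 122 FPKM. Of the 10 epithelial junction and polarity genes 9 were compared, and 4 rose and none fell from 14B to 14E (median 0.98), or 6 and none without slice 9 of 14E. From 14D to 14E 3 rose and none fell (median 0.21), or by kallisto crb and sdt rose and par-6 fell. Over all genes 12.7% rose from 14B to 14E and 14% from 14D to 14E. crb and sdt passed the filter through 14E alone. crb, the apical determinant, was at 3.81, 2.57, 3.14 and 16.2 FPKM and its partner sdt at 1.51, 1.25, 0.486 and 9.71 FPKM. shg, the E-cadherin gene, was at 20.9, 21.2, 42.8 and 49.9 FPKM and ed, an adhesion gene of the immunoglobulin family, at 20.6, 25.5, 46.3 and 44.9 FPKM. Nrt, a surface glycoprotein, was at 425, 357, 396 and 841 FPKM and rose by 1.09 from 14D to 14E. arm and alpha-Cat, which complete the cadherin complex, were not 2-fold apart in any comparison.

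In the JAK-STAT pathway 5 of 7 genes were compared. dome, the receptor, was at 7.79, 5.85, 24.1 and 29 FPKM and hop, the kinase, at 6.79, 6.64, 22.5 and 9.58 FPKM. Both rose from 14C to 14D, as did 12.5% of all genes. Socs36E, a target and inhibitor of the pathway, was at 11, 6.16, 2.04 and 27.7 FPKM, lowest in 14D, and rose by 3.24 from 14D to 14E. The zygotic genome activators vfl (Zelda) and Trl were not 2-fold apart in any comparison, and Clamp fell from 214 to 79.4 FPKM. Of the linker and variant histone and HMG genes, 6 of 6 compared, only HmgZ moved on the deposited scale, at 17.3, 2.05, 3.97 and 66.8 FPKM. HmgZ was low in both S. cerevisiae embryos.

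Of the sex-determination genes, Sxl and sisA were at least 2-fold higher in 14B and 14C than in 14D and 14E. Sxl (FBgn0264270, chromosome X, 7074550 to 7098053), the switch gene of female development, was at 311, 253, 10.2 and 18.2 FPKM. Its slices ran from 233 to 445 FPKM (median 314) in 14B, 207 to 281 FPKM (median 266) in 14C, 6.19 to 15.8 FPKM (median 9.91) in 14D and 6.33 to 37.1 FPKM (median 13.2) in 14E. No slice of 14D or 14E reached the lowest slice of 14B or 14C. Within the replicate pairs of the other lines Sxl differed by up to 3.32 on the log2 scale, so embryos of 1 label can also differ in it. sisA, an X-linked gene counted in sex determination, was at 229, 246, 44.2 and 76.7 FPKM and fell by 2.45 from 14C to 14D. msl-2, which equips males for dosage compensation, was at 13.2, 5.39, 11.3 and 37.1 FPKM, and roX1, a noncoding RNA of the same complex, at 146, 115, 69.7 and 122 FPKM. dpn, an autosomal inhibitor of Sxl activation, was at 16.4, 8.48, 13.6 and 4.76 FPKM. sc, another X-linked counting gene, declined in the order of the labels at 32.1, 22.8, 13.3 and 4.18 FPKM. Of 9 listed genes 8 were compared, and from 14B to 14E 1 rose and 4 fell (median -0.97), where 12.7% of all genes rose and 8.19% fell. The 738 compared genes of the X chromosome moved by a median of 0.35 from 14C to 14D and -0.37 from 14D to 14E, against 0.22 and -0.13 for 4220 autosomal genes. The sex of the embryos is not given by the labels, and its part in these differences was not tested.

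The genes of largest change from 14B to 14E included few of the genes listed above. The 10 largest rises ran from 3.54 to 4.30 on the log2 scale and comprised CG43645, CG7191, RNaseP:RNA, Adgf-A, ImpE2, CG3502, blot, dan, opa and CG15696. CG7191 was at 0.623, 0.022, 0.039 and 29.4 FPKM in 14B, 14C, 14D and 14E, and dan, a nuclear factor of head and eye development, was at 0.676, 0.103, 0.118 and 19.4 FPKM. Some rises came before 14E, as for ImpE2 at 0.204, 2.5, 14.5 and 16.7 FPKM and CG3502 at 5.88, 36.4, 45.7 and 90.6 FPKM. The 10 largest falls comprised GILT3, CG31279, CG32641, asparagine-synthetase, Sxl, CG45603, nullo, pre-mod(mdg4)-AB, zen2 and CG18269. CG31279 was at 31.1, 23.7, 18.5 and 0 FPKM and CG18269 at 91.7, 63.9, 99.5 and 8.85 FPKM, both falling 2-fold only at 14E within these 4 embryos. Both were higher in wild type at cycle 14A, at 104 FPKM for CG31279 and 318 FPKM for CG18269.

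Between 14D and 14E the 10 largest rises were those of CG7191, bxd, dib, CG17493, Nplp2, CG10176, CG43645, opa, pgc and dan, and the 10 largest falls those of bcd, CG31279, asparagine-synthetase, nullo, rost, CAH2, CG18269, amos, CG18769 and Aef1. bxd, a noncoding transcript of the bithorax complex, was at 3.34, 3.93, 0.748 and 43.8 FPKM and Nplp2 at 12.4, 5.84, 0.858 and 36.5 FPKM. amos, a proneural gene, was at 50.6, 44.3, 77.2 and 6.84 FPKM and rost, needed for myoblast fusion, at 11.4, 9.16, 36.2 and 1.76 FPKM. Over all genes, every slice of 14E was above every slice of 14D for 166 genes (3.31%) and below for 341 (6.8%), and for the pair 14B and 14E these counts were 68 (1.36%) and 195 (3.89%). Slices of 1 embryo are not replicates, so these counts describe the 2 embryos only.

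The step from 14C to 14D was led by genes that were low in all slices of 1 embryo. Every slice of 14D was above every slice of 14C for 304 genes (6.06%) and below for 111 (2.21%), and between 14B and 14C for 23 (0.458%) and 44 (0.877%) every slice of 14C was higher or lower. asparagine-synthetase, of amino acid metabolism, was at 82.3, 4.74, 75.9 and 4.05 FPKM, alternating between the embryos, and its slices ran from 70.3 to 99.5 FPKM in 14B, 2.28 to 7.35 in 14C, 44.9 to 91.9 in 14D and 0 to 9.98 in 14E. 26-29-p, a cysteine protease, was at 96.9, 5.25, 130.2 and 26.9 FPKM, CG33977 at 76.6, 1.57, 40.4 and 10.8 FPKM and hng3 at 52.4, 2.9, 59.3 and 18.1 FPKM, each lowest in 14C. CG17493 was at 241, 271, 7.47 and 189.8 FPKM and Sec61gamma, of the protein translocation channel, at 131, 290.2, 29.3 and 105 FPKM, both lowest in 14D. GILT3 was at 89.2, 1.29, 0.827 and 0.242 FPKM, high in 14B alone of the 4 embryos. In the earlier wild-type embryos it was at 123 FPKM at cycle 13 and 1.38 FPKM at cycle 14A. None of these genes differed by more than 1.15 on the log2 scale within a replicate pair of the other lines, and their courses followed no single order of the 4 embryos.

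Also among the 10 largest rises from 14C to 14D were CG33230, CG32104, dgt5, CG8036, CAH2 and GstE11, and among the 10 largest falls pgc, Sxl, CG42554, nos, CG9752, CG31674, ecd and CG30441. From 14B to 14C the largest rises were those of nvd, CG42554, CG40298, hbn, ecd, CG30441, CG11034, Patj, CG3502 and CG40470, and the largest falls those of GILT3, CG33977, 26-29-p, asparagine-synthetase, hng3, GstE10, CG13177, SkpC, CG32104 and CG45087. hbn, a homeobox gene of the head at 1.36, 22.8, 21.7 and 16.9 FPKM, turned from a rise by 3.34 to a change of -0.51 when slices were matched in position, so its rise rested on anterior slices that 14B lacks. ecd, needed for steroid hormone production, was at 3.79, 44.7, 4.75 and 27 FPKM, and nvd, an enzyme of the same pathway, at 0, 15.3, 3.75 and 2.49 FPKM.

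The placing of 14D was examined first on the 1047 genes that changed between 14B and 14E. For each gene the position of an embryo was expressed as the fraction of the way from 14B (0) to 14E (1). Over the 636 rising genes 14C lay at a median of -0.14 and 14D at 0.03, and 14D was nearer than 14C to the 14B end for 31.8% of them. Over the 411 falling genes 14C lay at 0.10 and 14D at -0.01, and 14D was nearer the 14B end for 60.3%. On FPKM both embryos were thus close to 14B, and the 2 groups of genes gave opposite orders, but in TPM 14D lay at 0.66 for rising genes, nearer 14E. Over all 1047 genes the share was 43.0%.

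With the earlier wild-type embryo at cycle 14A as the start, the 983 rising genes placed 14B at 0.38, 14C at 0.26 and 14D at 0.35 of the way to 14E, and the 936 falling genes placed them at 0.43, 0.46 and 0.34. With cycle 13 as the start, the 786 rising genes gave 0.46, 0.38 and 0.50 and the 1692 falling genes 0.77, 0.85 and 0.60. On this last set 14D was nearer the early end than 14C for 75.3% of genes, the largest share seen on FPKM. On the deposited scale the falling genes thus placed 14D before both 14B and 14C, whereas the rising genes placed it beyond 14C. By the scaling that equalises the median gene, 51.6% of falling genes and 38.9% of rising genes between 14B and 14E put 14D nearer 14B, and with slices weighted by depth the falling share was 43.6%.

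**Figure D4:**
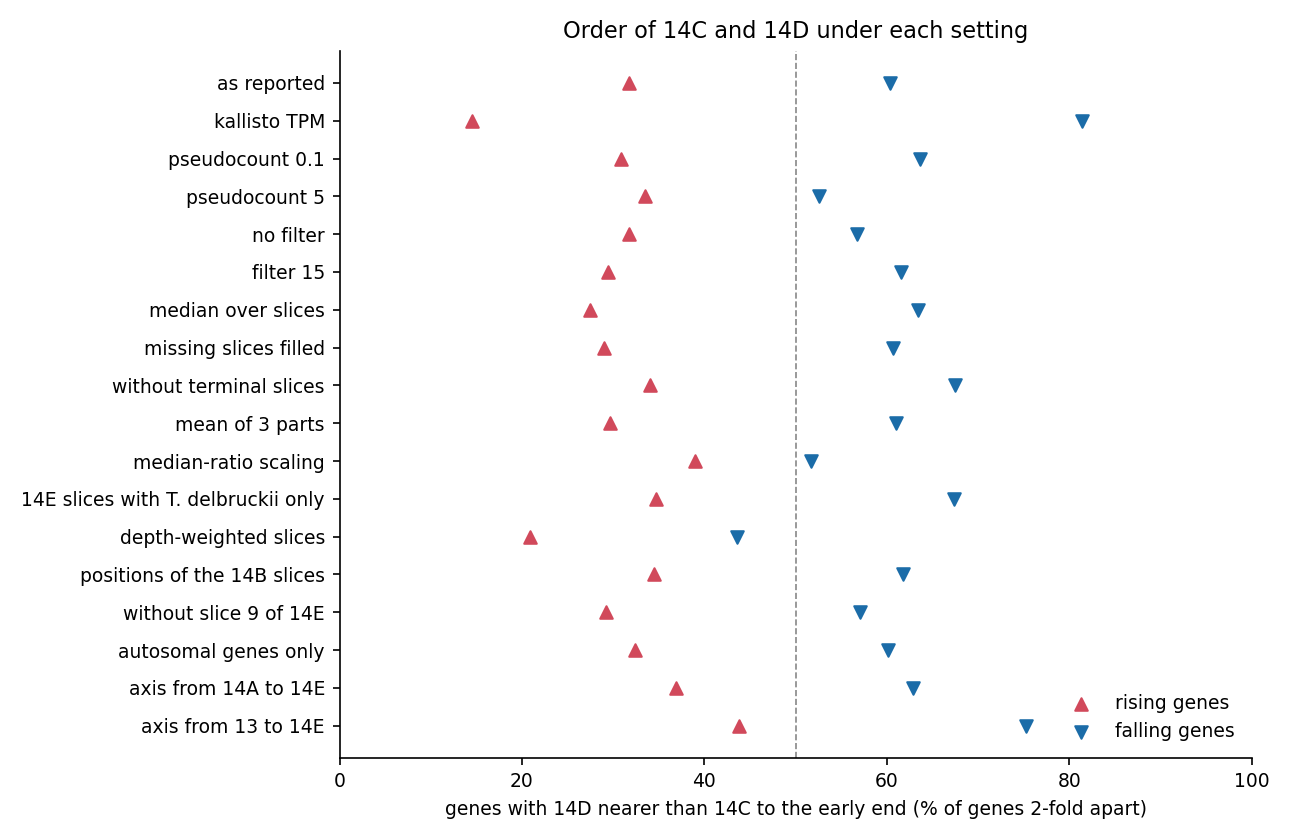
Points give the percentage of rising (up triangles) and falling (down triangles) genes for which 14D lay nearer than 14C to the early end of the axis, under the reported setting and each alternative, with a dashed line at equal numbers. Rising genes lie to the left of the line in every setting, from 14.5% to 43.8%, and falling genes to its right in all settings but depth weighting (43.6%).

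A set of genes chosen without any wild-type value gave a second reading. In the bcd RNAi, G20 and hb RNAi embryos, 431 genes were at least 2-fold higher in each of 6 embryos at cycle 14D than in each of 5 embryos at cycle 13, and 709 were at least 2-fold lower. In the wild-type series the median level of the rising set was 0.30 on the log2 scale at cycle 13, 0.69 at 14A, 1.86 at 14B, 1.43 at 14C, 1.33 at 14D and 3.36 at 14E. That of the falling set was 5.06, 3.74, 3.09, 2.77, 3.28 and 2.46 at the same stages. On the deposited scale, by the falling set 14D stood between 14A and 14B, with 73.2% of its genes higher in 14D than in 14C. The medians of this set were 8.72 FPKM in 14D and 7.53 FPKM in 14B, and the median-ratio factors of these embryos were 1.07 and 0.93. Divided by these factors the medians lie close together, so the order of 14D and 14B rests on the scale. The difference of the medians of 14D and 14C went from 0.51 to 0.31 with that scaling. By the rising set 14C and 14D were close, with 53.4% of its genes higher in 14D, and both were below 14B. The median of the gene-by-gene difference in the rising set was 0.04 from 14C to 14D and that of the falling set 0.33. The difference of the 2 medians for the rising set, -0.10, thus differed in sign from the gene-by-gene median and turned to 0.16 in TPM and to 0.26 with a pseudocount of 0.1. 14E was the latest embryo by both sets, with 94.9% of the rising set higher and 19.3% of the falling set higher than in 14D.

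In single slices the ranges of 14B, 14C and 14D overlapped. The mean log2 level of the rising set ran from 2.21 to 2.58 over the slices of 14B, 2.02 to 2.38 in 14C, 1.72 to 2.28 in 14D and 2.38 to 3.86 in 14E. For the falling set the slices ran from 2.81 to 3.86 in 14B, 2.84 to 3.5 in 14C, 3.03 to 3.71 in 14D and 1.93 to 3.71 in 14E. The last posterior slice was highest for the falling set in each of the 4 embryos. Medians over slices for the falling set were 2.99 in 14B, 2.93 in 14C, 3.37 in 14D and 2.29 in 14E.

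**Figure D5:**
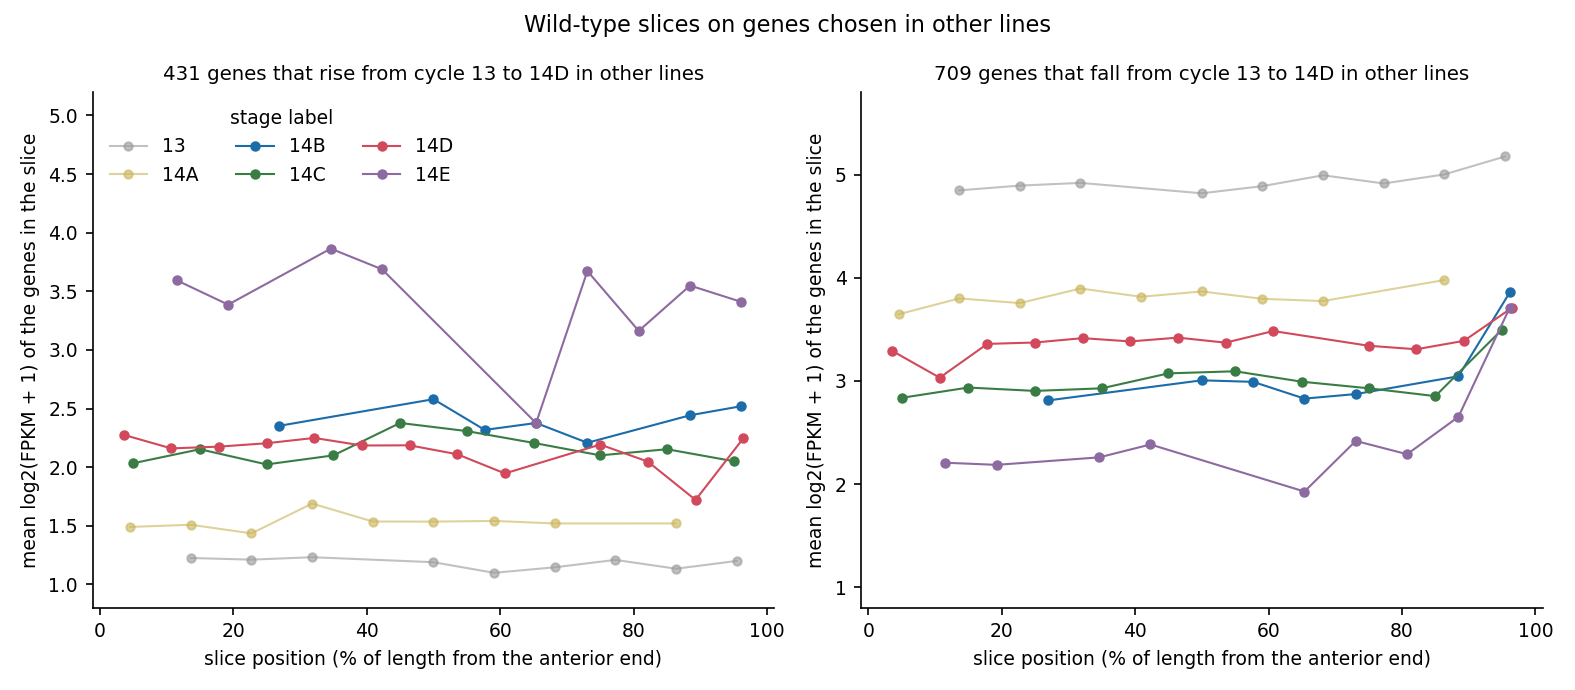
Each point is a slice, at its position from the anterior end, and its mean log2(FPKM + 1) over the genes that rise (left) or fall (right) from cycle 13 to 14D in the other lines. In the rising set 14E lies above all other embryos except at slice 9 (2.38) and the lines of 14B, 14C and 14D overlap, and in the falling set 14D lies between 14A and the pair 14B and 14C at all but the last slice, with a raised last slice in 14B, 14C and 14E.

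Mean levels were also correlated across the 5018 genes. These correlations are across genes, which are not independent replicates. The Spearman correlation of 14D was 0.953 with 14C, 0.945 with 14B, 0.935 with 14A and 0.880 with 14E, and that of 14B with 14C was 0.978. 14E had a correlation of 0.911 with 14B and 0.906 with 14C, higher than with 14D.

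Few genes changed steadily through the 4 embryos. Of the 2336 genes whose highest mean was at least 2-fold above the lowest, 95 rose and 83 fell at each step in the order of the labels, and 25 rose and 46 fell at each step with 14C and 14D exchanged. In 1672 (71.6%) 14E lay outside the range of the other 3 embryos, and in 1509 (64.6%) 14D did, against 937 for 14C and 551 for 14B. 14E was at least 2-fold above the other 3 for 404 genes and below for 199, and 14D above for 159 and below for 79. Among the genes with 14D highest were CG7461 at 20, 18.4, 102 and 20.4 FPKM, spin, a lysosomal carrier, at 8.32, 10.2, 42.8 and 4.28 FPKM, DnaJ-H at 4.56, 5.0, 20.5 and 1.58 FPKM and Topors, a ubiquitin and SUMO ligase, at 7.09, 7.01, 26.4 and 4.26 FPKM. CG7461, spin, DnaJ-H and Topors were chosen after their values were seen, and their means in the wild-type embryo at cycle 13 were 42.4, 36.2, 78.1 and 24.3 FPKM.

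Of the 2336 changing genes, both S. cerevisiae embryos were higher than both T. delbruckii embryos for 317 and lower for 543. They were at least 2-fold above for 5 genes and at least 2-fold below for 41. The 3 genes with the widest gap above were bcd, Argk at 4.45, 13.7, 24.2 and 4.1 FPKM and CG34140 at 0.263, 3.01, 5.43 and 0.577 FPKM, and the 3 below were HmgZ, Hsromega, a heat-shock noncoding RNA, at 77.4, 21.8, 14.6 and 119.8 FPKM, and rib, a factor of tube formation, at 30.1, 7.22, 8.28 and 35.4 FPKM. For bcd the gap between 14C and 14B rested on anterior slices that 14B lacks, and at matched positions the change from 14B to 14C was -0.83. Without the 2 slices of 14E that had S. cerevisiae carrier, 597 genes rose and 612 fell from 14B to 14E, within 1.5 times of the counts with all slices. The part of the carrier in single genes was not tested.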

How the data were processed

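RNA sequencing of single slices was analysed for 4 wild-type embryos, with 3 earlier wild-type embryos and 18 embryos of other lines as references. According to the methods, the authors mapped reads with STAR 2.3.0.1 to the fly and carrier yeast genomes, discarded reads that could not be assigned to 1 species, removed slices with few reads, and took the wild-type reads from an earlier publication of theirs. The deposited FPKM values per gene were made with Cufflinks 2.2.1 on the FlyBase annotation of release 6, and a deposited TPM table per transcript was made with kallisto 0.42, whose columns are named FPKM in the file. Neither table holds counts. Fragments per slice were therefore estimated from the smallest steps of the FPKM values, which was tested on simulated data, and the depths and counting errors are estimates that cover counting only.

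For each gene the mean over the slices of an embryo was taken, and log2(mean + 1) was compared for genes with a mean of at least 5 FPKM in 1 of the 4 embryos. Fold changes on this scale understate those of low genes. With 1 embryo per stage no test was made, a change of 2-fold was called by size, and spread was read from 5 replicate pairs of other lines. Named genes are the members of the gene lists past 2-fold in a comparison, the 10 largest rises and falls per comparison, and the 3 genes of widest gap in each direction between 14C with 14D and 14B with 14E. The members and lists were chosen with earlier results of these data known. Symbols of 13526 of the 13587 genes were matched to identifiers and positions of a release 6 (BDGP6) annotation of a later date, and TPM were summed over 30048 of 30385 transcripts. The ribosomal protein list was not analysed here. Alternatives changed the pseudocount, the filter, the average over slices, the scaling, the table, the slices and the axis. Gene lists were counted over the same genes under each alternative. Python 3.11.15 was used with numpy 2.4.6, pandas 2.3.3 and scipy 1.17.1.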

Additional observations from a re-analysis of the deposited data

Results flagged for a closer look

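In 15 groups of slices, formed by embryo and measure, the highest and lowest slice were compared with the rest by Dixon's criterion, which chance passes in about 1 group of 20. The mean log2 level of the genes that fall from cycle 13 to 14D in other lines stood apart at the last slice of 3 embryos, with 3.86 in slice 13 of 14B, 3.5 in slice 10 of 14C and 3.71 in slice 13 of 14E. The same slices held the pgc peaks of 1889, 3307 and 1445 FPKM. In slice 9 of 14E the mean log2 level of the rising genes was 2.38, below the 3.16 to 3.86 of the other slices of that embryo. That slice had 244281 fragments, the fewest of all slices of the 4 embryos, and its part in the low value was not tested.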

How the results depend on the processing

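Of 320 comparisons of a result with an alternative, 261 kept the result, 57 moved it and 2 reversed it. The reversals concern the rising genes of the other lines, for which 14D minus 14C was -0.10 as reported, 0.16 in TPM and 0.26 with a pseudocount of 0.1. In TPM, 156 genes fell from 14B to 14E, 1428 rose and 50 fell from 14C to 14D and 392 rose from 14D to 14E. TPM placed 14D at 0.66 for rising and -0.22 for falling genes, with 14.5% and 81.4% of genes nearer 14B, a difference of 0.80 for the falling genes of other lines, and a Spearman correlation of 14D with 14B of 0.925. A pseudocount of 5 gave 281 rising and 255 falling genes from 14B to 14E, 31 and 42 from 14B to 14C, 260 and 96 from 14C to 14D, and 406 and 489 from 14D to 14E, with 1478 changing genes, 14D outside the range for 971, a falling share of 52.5% and a difference of 0.36 for the falling genes of other lines. A pseudocount of 0.1 gave 264 falling genes from 14B to 14C. A filter at 15 FPKM gave 289 rising genes from 14B to 14E, 37 rising and 71 falling from 14B to 14C, 300 rising from 14D to 14E, a place of 0.16 for 14D by rising genes, correlations of 0.922, 0.932 and 0.862 of 14D with 14B, 14C and 14E, 1467 changing genes and 14E outside the range for 1034. Without a filter, 1065 rose from 14B to 14E, 113 rose and 235 fell from 14B to 14C, 1130 rose from 14D to 14E, and the correlation of 14D with 14E was 0.942. Median-ratio scaling gave 351 and 305 from 14C to 14D, shares of 38.9% and 51.6%, and a difference of 0.31. Weighting slices by depth placed 14D at 0.17 and 0.24 with shares of 20.9% and 43.6%, a difference of 0.69, and the correlation of 14D with 14E of 0.896. Medians over slices gave 94 rising genes from 14B to 14C and a place of 0.20. The falling share was 67.5% without terminal slices and 67.3% with only the T. delbruckii slices of 14E, where the correlation of 14D with 14E was 0.862. Axes from cycle 13 gave shares of 43.8% and 75.3%, and from 14A a rising share of 36.9%. No paired analysis was possible because each stage has 1 embryo. The matching of slice positions, slice 9 of 14E, autosomal genes and other axes were chosen as alternatives after seeing the data. The depth limits genes near 5 FPKM, where counting alone moves an embryo mean by up to 23.3%.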

Other observations

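The FPKM and TPM tables disagreed on opa. Of 4973 genes in both, opa was the only 1 whose TPM relative to FPKM was higher in the 14 T. delbruckii slices than in the 25 S. cerevisiae slices by at least 2 log2 units, with a gap of 2.70, and 3 genes, CG34148, Mal-B2 and CG10289, were lower by that much. In 5 T. delbruckii slices opa was listed at 0 FPKM with 5.90 to 49.6 TPM, whereas the 14 S. cerevisiae slices listed at 0 FPKM held at most 0.17 TPM. The mean of opa in 14B was 16.6 TPM and 0.910 FPKM, so the level of opa in 14B depends on the table.

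Of 402 named changes past 2-fold, 5 changed sign under scaling, matched positions or TPM. CG30441 from 14B to 14E became -0.09 in TPM, and pre-mod(mdg4)-AB from 14B to 14C became 0.32. At matched positions from 14B to 14C, ImpE2 became -0.27, bcd -0.83 and hbn -0.51.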
